A study of Homo sapiens with 6 samples.

Results

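Desmosome and plakin genes encode the proteins that rivet neighbouring epithelial cells together. The 10 genes described here, DSP, JUP, PKP2, PKP3, PKP4, DSC2, DSG2, PPL, EVPL and PERP, were chosen by gene symbol from the 61806 genes of the table, with their values in view: DSP, JUP and PKP3 entered because they were higher in both HMGA2 knockdown lines. The differences of these genes from control are therefore given as descriptions, without p-values. Calls of these genes against control, and their loss in other fits, are descriptions too. The libraries came from MDA-MB-231, a human triple-negative breast cancer cell line with mesenchymal features. By the sample titles, the control line carried a short hairpin RNA named shNC, and the other 2 lines carried shHMGA2-1 or shHMGA2-2. Both of these are directed at HMGA2, an AT-hook protein that binds DNA and alters chromatin. The library names read WT for shNC and SH2 for shHMGA2-1, which the labels do not explain, and the titles were followed. Each of the 3 lines gave 2 libraries. According to the methods, cells infected with lentivirus were kept in puromycin and each knockdown line was grown from a single clone, which is not stated for shNC. The effect of a hairpin and the difference between clones cannot be told apart.

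In a desmosome, cadherins of the desmocollin and desmoglein families span the membrane and bind those of the next cell. Inside the cell, the armadillo proteins plakoglobin (JUP) and the plakophilins bind the cadherin tails, and desmoplakin (DSP) links this plaque to intermediate filaments. Periplakin (PPL) and envoplakin (EVPL) are plakins known from the cornified envelope of stratified epithelia, and PERP is a tetraspan membrane protein of desmosomes. Epithelial cells carry many desmosomes, and loss of desmosomal genes accompanies the epithelial-mesenchymal transition.

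The bases just upstream of 4 members are shown because they hold 2 genes that were higher and 2 that were lower in both knockdown lines, and because HMGA2 and the repressors of epithelial genes act through DNA. The promoter table (RefSeq, GRCh38.p14) matched 6 of the 10 members, DSP, JUP, PKP4, DSC2, DSG2 and PERP. In it, a window holds 250 bases before and 50 bases after a gene start, and the stretches below are the parts that lie before the gene. They are DSP at chr6:7541421-7541574 (plus strand), JUP at chr17:41786932-41786961 (minus strand), DSC2 at chr18:31102523-31102671 (minus strand) and DSG2 at chr18:31497927-31498042 (plus strand). Capitals mark CAGGTG, the letters bound by the ZEB and SNAI repressors, which were searched on both strands; the JUP stretch holds none.
DSP: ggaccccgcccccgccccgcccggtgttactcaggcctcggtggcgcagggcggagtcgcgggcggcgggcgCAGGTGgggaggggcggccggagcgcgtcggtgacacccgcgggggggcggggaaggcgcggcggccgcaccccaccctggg
JUP: taggatgagacctcaagttagagtccatcc
DSC2: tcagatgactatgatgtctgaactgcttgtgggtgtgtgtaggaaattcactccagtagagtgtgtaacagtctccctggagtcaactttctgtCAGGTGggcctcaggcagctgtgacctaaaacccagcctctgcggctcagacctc
DSG2: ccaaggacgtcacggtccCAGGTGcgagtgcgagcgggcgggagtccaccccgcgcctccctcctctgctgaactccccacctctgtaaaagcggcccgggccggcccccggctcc

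Over the whole windows, the letters CAGGTG were found 2 times at DSP, 2 times at DSG2, 2 times at 1 of the 2 JUP starts and 1 time at 1 of the 2 DSC2 starts. They were not in the windows of PKP4 and PERP. DSP and JUP, which were higher in the knockdown lines, and DSG2 and DSC2, which were lower, thus held the same letters. Of 35116 promoter windows in the table, 20.6% held at least 1 copy and 3.49% at least 2. The windows of these members were rich in G and C, at 60.7% to 77% against a median of 58.7% over all windows. A run of 6 or more A or T, the kind of stretch that AT-hooks bind, was found in 1 of the JUP windows and in no other window of these members, against 61.2% of all windows. Such matches describe letters and not binding.

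HMGA2 itself was lower in both knockdown lines. Its level was 131 and 133 CPM (counts scaled to a common library total after TMM normalisation) in the control libraries, 49.5 and 58.3 with shHMGA2-1 and 25.7 and 27.6 with shHMGA2-2. No libraries of different lines overlapped, and the log2 fold change from shNC was -1.29 (SE 0.09) in shHMGA2-1 and -2.31 (SE 0.09) in shHMGA2-2. The libraries held 16461178 to 17167293 counts, so that the limit set by a count of 0, taken as 3 counts, equalled 0.175 to 0.182 CPM. This limit covers counting error only. Replicates of a line differed beyond sampling noise (chi-square per degree of freedom 2.03 to 6.21), most in shHMGA2-1. The labels do not say that they came from separate cultures, so the p-values measure the spread between these samples, which may be technical. Of the genes expected in MDA-MB-231, VIM stood at 411 to 432 FPKM, that is, fragments scaled by gene length and library total, in each library, while line means from shNC to shHMGA2-2 went from 228 to 129 for AXL, from 33.5 to 12.5 for EGFR and from 65.4 to 94.2 for CD44. Of those expected to be low, ERBB2 averaged 6.57 FPKM in shNC and 9.73 in shHMGA2-2, and ESR1, PGR and CDH1 stood at 0 to 12 counts. The part of these markers in the members' values was not tested. Leukocyte markers (5 genes) summed to 3 to 13 counts, endothelial markers (3 genes) to 0 to 16, and cardiomyocyte markers (4 genes, of which MYH6, MYH7 and TNNT2 were at 0 in each library) to 0 to 16. Of 4 keratinocyte markers in the table, 3 stood at or under 3 counts in each library, and KRT10 alone held the summed 516 to 647 counts. In whole-culture RNA, fewer cells of a kind and less RNA per cell cannot be told apart.

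The members did not move as a unit. DSP, JUP and PKP3 were higher in both knockdown lines. The cadherin genes DSC2 and DSG2 and the plakophilin genes PKP2 and PKP4 were lower in both. Genes of the plaque, to which the plakophilins belong, thus stood on both sides. A gene was called when edgeR's quasi-likelihood test gave an adjusted p under 0.05 over the 16110 genes tested, and all 10 members passed the filter on low counts. In shHMGA2-1, 3 members were called higher and 5 lower, against 33.4% of all tested genes called, 15.8% higher and 17.6% lower. With a fold of at least 2 added, 2 were higher (DSP and JUP) and 1 lower (DSC2), against 8.49% of all genes, 4.89% higher and 3.59% lower. With upper-quartile scaling in place of TMM the split was 4 higher and 4 lower, EVPL being gained and PKP4 lost, and without shNC replicate 2, 5 members were called, as PKP2, PKP3 and PKP4 were lost. In shHMGA2-2, 4 members were called higher and 4 lower, against 58.7% of all genes, 29.5% higher and 29.2% lower. At least 2-fold differences were found for 4 on the higher side (DSP, JUP, PKP3 and PPL) and 3 on the lower side (PKP2, DSC2 and DSG2), against 21.3% of all genes, 11.7% higher and 9.65% lower. Since the rule used these contrasts and both rest on the same shNC libraries, nothing is read from the counts. The median log2 fold change of the 10 members was -0.10 in shHMGA2-1 and 0.00 in shHMGA2-2, beside 0.01 and 0.03 over all tested genes.

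**Figure D1:**
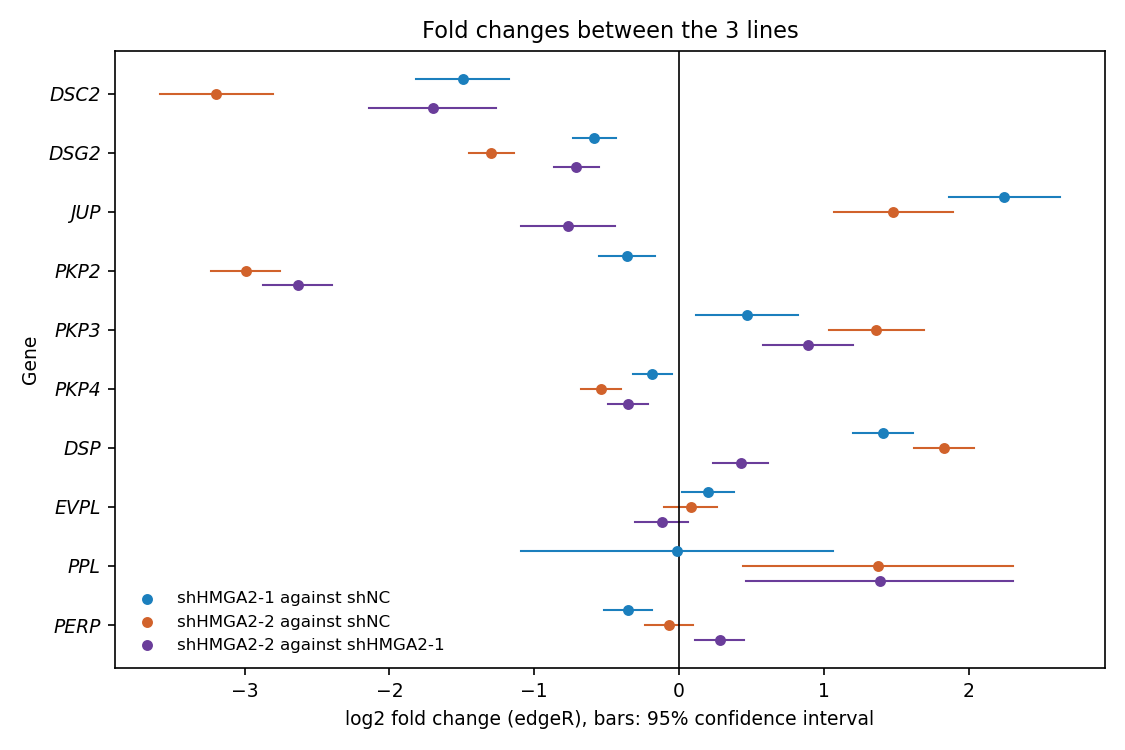
Log2 fold change (horizontal axis) of each of the 10 members in each knockdown line against shNC and between the knockdown lines, with bars for the 95% confidence interval of the edgeR fit. DSP, JUP and PKP3 lie to the right of 0 in both knockdown lines, whereas PKP2, PKP4, DSC2 and DSG2 lie to the left in both, and further in shHMGA2-2.

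DSC2 encodes desmocollin 2, a cadherin that pairs with desmogleins across the cell gap. Its level was 20.6 and 17.4 CPM in shNC, 6.23 and 7.25 in shHMGA2-1, against 2.19 and 1.95 in shHMGA2-2. The lines did not overlap, and the raw counts went from 335 and 282 in shNC to 37 and 34 in shHMGA2-2. The log2 fold change was -1.49 (SE 0.15) in shHMGA2-1 and -3.19 (SE 0.19) in shHMGA2-2, that is, 2.82-fold and 9.16-fold lower. Between the knockdown lines, a contrast that the choice of members did not use although it rests on the same knockdown libraries, DSC2 was lower in shHMGA2-2 by a log2 fold change of -1.70 (SE 0.21; edgeR adjusted p = 3.25e-07).

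DSG2 encodes desmoglein 2, the desmoglein of simple epithelia. It stood at 187 and 194 CPM in shNC, 120 and 134 with shHMGA2-1 and 78.1 and 77.1 with shHMGA2-2. It fell stepwise without overlap, by 0.58 (SE 0.07) and 1.30 (SE 0.07) on the log2 scale. The shHMGA2-2 line was lower than the shHMGA2-1 line (log2 fold change -0.71, SE 0.08; edgeR adjusted p = 2.4e-08).

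Both cadherin genes lie on chromosome 18 of GRCh38, DSC2 at chr18:31058840-31102522 on the minus strand and DSG2 at chr18:31498177-31549008 on the plus strand, 395655 bases apart. FPKM divides by the exonic size of each gene. Comparisons between genes therefore depend on how well that size matches the transcripts present. On this scale, DSC2 and DSG2 together summed to 20.7 ± 0.247 in shNC, 13.9 ± 0.94 in shHMGA2-1 and 8.67 ± 0.0424 in shHMGA2-2 (SD, n = 2). DSC2 made up 7.05% ± 0.94 of that sum in shNC, 3.84% ± 0.0962 in shHMGA2-1 and 1.96% ± 0.173 in shHMGA2-2, so DSG2 held nearly the whole cadherin level in each line. The other cadherin genes of desmosomes, DSC1, DSC3, DSG1, DSG3 and DSG4, did not pass the filter, nor did the plakophilin gene PKP1. Each of these 6 genes had at most 1 count in any library, under the limit of 3 counts, so that no difference was detectable at this depth.

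JUP encodes plakoglobin, the armadillo protein that joins cadherin tails in desmosomes and also in adherens junctions. Its level was 2.77 and 2.89 CPM in shNC, 14.7 and 12.2 in the shHMGA2-1 line, with 7.45 and 8.37 in shHMGA2-2. Among the 10 members JUP had the largest fold in shHMGA2-1, 4.74-fold (log2 fold change 2.25, SE 0.19), and stood 2.79-fold higher in shHMGA2-2 (1.48, SE 0.20). It did not follow the order of HMGA2 levels: JUP was lower in shHMGA2-2 than in shHMGA2-1 (log2 fold change -0.77, SE 0.16; edgeR adjusted p = 0.000241). Raw counts were small in shNC, 45 and 47, and 126 to 255 in the knockdown libraries.

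The close relative of JUP is CTNNB1, beta-catenin, which binds cadherins of adherens junctions and carries Wnt signals. In FPKM, JUP made up 1.73% ± 0.0306 of JUP and CTNNB1 together in shNC, 7.37% ± 0.998 in shHMGA2-1 and 5.49% ± 0.379 in shHMGA2-2 (SD, n = 2). Beta-catenin transcripts therefore remained the main part of this pair in each line.

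The plakophilins, armadillo proteins that cluster desmosomal cadherins, moved in different directions. PKP2 was at 72.8 and 75.6 CPM in shNC, 54.1 and 61.6 in shHMGA2-1, while shHMGA2-2 had 10.3 and 8.32. No libraries of different lines overlapped. The drop was mainly in shHMGA2-2, where PKP2 was 7.96-fold lower than in shNC (log2 fold change -2.99, SE 0.12), against -0.36 (SE 0.09) in shHMGA2-1, where the call was lost without shNC replicate 2. The knockdown lines differed by a log2 fold change of -2.63 (SE 0.12; edgeR adjusted p = 2.04e-15), the widest gap of the 10 members.

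PKP3, the plakophilin of most epithelia, was at 8.61 and 7.02 CPM in shNC, 12.8 and 8.84 in shHMGA2-1, against 20.4 and 19.8 in shHMGA2-2. One shHMGA2-1 library lay only just above the shNC libraries. The log2 fold change was 0.47 (SE 0.17) in shHMGA2-1 and 1.36 (SE 0.16) in shHMGA2-2, and the knockdown lines differed by 0.89 (SE 0.15; edgeR adjusted p = 2.48e-05). In shHMGA2-1, PKP3 was the called member nearest the limit on the higher side, and EVPL, at 0.20 (SE 0.09), was the nearest that was not called. The shHMGA2-1 call of PKP3 was lost in DESeq2 and without shNC replicate 2 (log2 fold change 0.33), shHMGA2-1 replicate 1 (0.18) or either shHMGA2-2 library.

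PKP4, which is found in adherens junctions and desmosomes, was the most abundant plakophilin, at 233 and 235 CPM in shNC, 199 and 213 with shHMGA2-1 and 163 and 159 with shHMGA2-2. Its differences were small and without overlap, with log2 fold changes of -0.18 (SE 0.07) and -0.54 (SE 0.07) from shNC and of -0.35 (SE 0.07; edgeR adjusted p = 9.32e-05) between the knockdown lines. In shHMGA2-1 its call was lost without any 1 library other than shHMGA2-1 replicate 2. As a share of the summed FPKM of PKP2, PKP3 and PKP4, PKP3 went from 6.09% ± 0.876 in shNC to 9.52% ± 2.73 in shHMGA2-1 and 22.9% ± 0.0191 in shHMGA2-2 (SD, n = 2). PKP2 went from 21.4% ± 0.537 to 18.7% ± 1.2 and 3.93% ± 0.525. In shHMGA2-2, PKP3 thus stood above PKP2, the reverse of the order in both libraries of shNC and of shHMGA2-1.

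**Figure D2:**
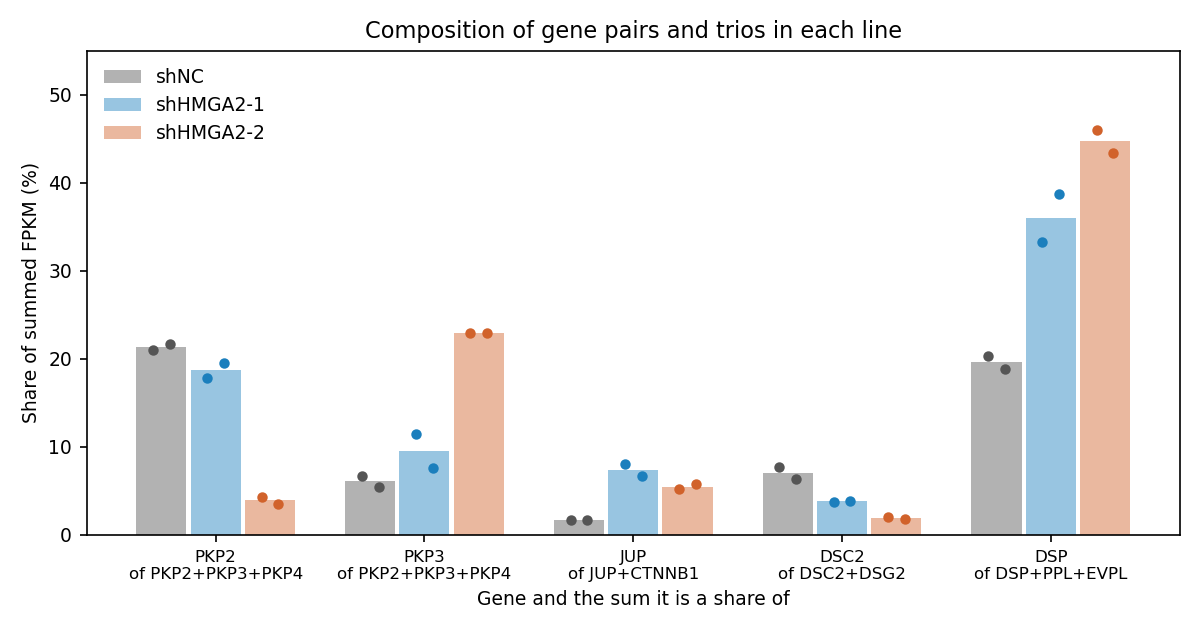
Share of summed FPKM (vertical axis, percent) in each library for DSP among the 3 plakins DSP, PPL and EVPL, for JUP among JUP and CTNNB1, for PKP2 and PKP3 among the 3 plakophilins, and for DSC2 among the 2 cadherins, with points for libraries and bars from 0 for line means. The PKP3 share rises to 22.9% in shHMGA2-2 as the PKP2 share drops to 3.93%, and the DSP share rises from 19.6% to 44.7%.

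DSP encodes desmoplakin, the plakin that ties the desmosomal plaque to intermediate filaments. Its level was 22.8 and 21.7 CPM in shNC, 53.7 and 64.3 in the shHMGA2-1 line, with 80.2 and 78.3 in shHMGA2-2. The lines did not overlap and stood in the reverse order of HMGA2, with DSP 2.65-fold higher in shHMGA2-1 (log2 fold change 1.41, SE 0.10) and 3.56-fold higher in shHMGA2-2 (1.83, SE 0.10). The knockdown lines differed by a log2 fold change of 0.42 (SE 0.09; edgeR adjusted p = 0.00039).

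PPL, periplakin, was near the limit of detection, with counts of 12 and 9 for shNC, 13 and 9 for shHMGA2-1, against 26 and 32 for shHMGA2-2. Only shHMGA2-2 stood apart, with a log2 fold change of 1.37 (SE 0.45) from shNC, while shHMGA2-1 and shNC overlapped (-0.01, SE 0.52). The shHMGA2-2 call was lost in DESeq2, in limma with either pseudocount and without shNC replicate 2 or shHMGA2-2 replicate 2. Between the knockdown lines PPL differed by 1.39 (SE 0.45; edgeR adjusted p = 0.0121), a call that was lost without shHMGA2-1 replicate 2 (adjusted p = 0.0818) or shHMGA2-2 replicate 2 (0.0887) and in DESeq2 (0.121). EVPL, envoplakin, was at 48.8 and 50.7 CPM in shNC, 58.7 and 55.6 in shHMGA2-1, while shHMGA2-2 had 50.5 and 54.6. It was called in no comparison, except in shHMGA2-1 against shNC with upper-quartile scaling or without shHMGA2-1 replicate 2, and the 95% interval of its difference between the knockdown lines ran from -0.30 to 0.06 on the log2 scale. Of the summed FPKM of DSP, PPL and EVPL, DSP made up 19.6% ± 1.0 in shNC, 36.0% ± 3.84 in shHMGA2-1 and 44.7% ± 1.81 in shHMGA2-2 (SD, n = 2).

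PERP, which is needed for desmosome assembly in stratified epithelia, had the highest FPKM of the 10 members in each line. Its level was 157 and 148 CPM in shNC, 108 and 132 in shHMGA2-1, against 146 and 145 in shHMGA2-2. The shHMGA2-1 line was the lowest, with a log2 fold change of -0.35 (SE 0.08) from shNC, a call lost without shNC replicate 1, against -0.07 (SE 0.08) for shHMGA2-2. The 2 knockdown lines differed by 0.28 (SE 0.08; edgeR adjusted p = 0.00558), a call lost without shHMGA2-1 replicate 1 (adjusted p = 0.0687), shHMGA2-2 replicate 1 (0.0571) or shHMGA2-2 replicate 2 (0.0603).

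**Figure D3:**
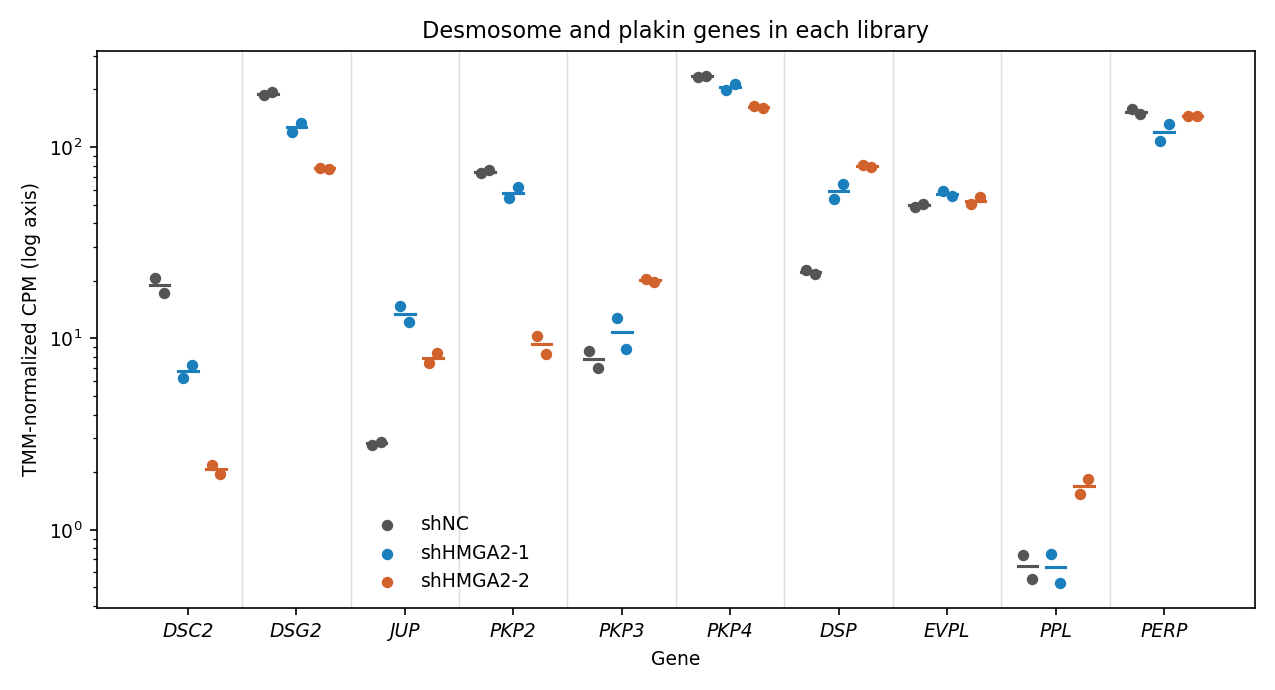
TMM-normalised CPM (vertical axis, log scale) of the 10 members in each of the 6 libraries, with points for libraries and a short line at the mean of each line. DSP, JUP and PKP3 lie higher in the knockdown libraries, and DSC2 and PKP2 drop furthest in shHMGA2-2.

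Between the knockdown lines, 9 of the 10 members were called, 4 higher and 5 lower in shHMGA2-2, beside 50.2% of all tested genes (24.5% higher and 25.7% lower). With a fold of at least 2 added, these were PPL on the higher side and PKP2 and DSC2 on the lower side, beside 15.1% of all genes (7.83% higher and 7.27% lower). The CPM of the 2 lines did not overlap for 10 members here, for 9 members between shHMGA2-1 and shNC (PPL being the exception) and for 9 between shHMGA2-2 and shNC (EVPL), beside 72.6%, 64.5% and 79.8% of all genes. Line means ran in the order shNC, shHMGA2-1, shHMGA2-2 for 6 members, rising for DSP and PKP3 and falling for PKP2, PKP4, DSC2 and DSG2, against 49.3% of all tested genes. JUP, PPL, EVPL and PERP did not follow that order.

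The summed FPKM of DSP, JUP and PKP3 went from 4.12 ± 0.332 in shNC to 10.02 ± 0.672 in shHMGA2-1 and 13.4 ± 0.113 in shHMGA2-2, while that of the 10 members went from 96.6 ± 1.12 to 87.6 ± 4.65 and 84.2 ± 1.04 (SD, n = 2). FPKM carries no TMM factor, so differences between lines are not the same as in CPM. PERP, for example, averaged 34.9 FPKM in shNC and 36.05 in shHMGA2-2, but 153 and 146 CPM. PERP, PKP4 and DSG2 stood in the first 3 places in each line, so the genes that were higher in the knockdown lines were a minor part of the total. In shNC, DSP at 1.64 and 1.55 FPKM could not be separated from DSC2 at 1.58 and 1.33, and in shHMGA2-1, PKP3 at 3.41 and 2.31 overlapped JUP at 3.01 and 2.45. The other neighbours in the order did not overlap. DSP moved from the seventh place in shNC to the fifth in shHMGA2-2, above PKP2, whereas DSC2 dropped to the last place, below PPL (0.18 and 0.16 against 0.21 and 0.25 FPKM). The raw counts of DSC2 there, 37 and 34, were above the 26 and 32 of PPL, whose exonic size is smaller.

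As the choice of desmosome and plakin genes by name fixes, the members shared junction annotations. In the GO terms of the table, 10 of 10 carried a desmosome term, 9 a cornified envelope term (PERP being without it) and 5 an intercalated disc term, the junction of heart muscle. In GRCh38 they lie on 7 chromosomes, DSP at chr6:7541617-7586714 and PERP at chr6:138088505-138107419, JUP at chr17:41754604-41786931 and EVPL at chr17:76004502-76027306, PKP2 at chr12:32790745-32896777, PKP3 at chr11:392614-404908, PKP4 at chr2:158456952-158682879 and PPL at chr16:4882507-4960741. Counts were made per gene and do not separate isoforms, of which GENCODE lists 1 protein-coding transcript for PERP and 10 for JUP. Within 1 Mb of DSP, 12 tested neighbours had a median log2 fold change of 0.04 in shHMGA2-1 and 0.13 in shHMGA2-2, under that of DSP itself. For 44 neighbours of JUP it was 0.06 and -0.16, for 7 of DSC2 -0.27 and -0.23, for 10 of PKP2 -0.12 and -0.13, and for 9 of PKP4 -0.50 and -0.40, the last beside -0.18 and -0.54 for PKP4 itself. For 48 neighbours of PKP3 the medians were 0.17 and 0.22, on the same side as PKP3. Of them, 16 were called higher and 4 lower in shHMGA2-1, beside 15.8% and 17.6% of all tested genes. In shHMGA2-2 these were 19 and 11, beside 29.5% and 29.2%. Around EVPL, itself at 0.20 and 0.08, 58 neighbours held 13 called higher and 5 lower in shHMGA2-1, and 14 and 13 in shHMGA2-2. For 9 neighbours of DSG2 the medians were -0.27 and 0.09, and for those of PPL, EVPL and PERP they lay between -0.14 and 0.22. DSC2 and DSG2 lie within 1 Mb of each other, so each is counted among the neighbours of the other. Other annotated genes overlap 7 of the members, and the strand setting of the counting is not stated. The overlapping genes had few counts, 1 to 20 for DSP-AS1, 1 to 6 for DSG2-AS1, 9 to 26 for PKP4-AS1 and 15 to 37 for TEN1-CDK3 within the span of EVPL.

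Genes with a pattern most like that of DSP, JUP and PKP3 over the 6 libraries were ranked by the root mean square difference of centred log2 CPM. For DSP these were BAIAP2L1 (0.144), SLFN13 (0.145) and DDB2 (0.149), with log2 fold changes in shHMGA2-1 and shHMGA2-2 of 1.39 and 1.58, 1.74 and 1.89, and 1.51 and 2.15. JUP was followed most closely by DLK2 (0.163), VLDLR (0.19) and PALM (0.196), which also stood higher in shHMGA2-1 than in shHMGA2-2. PKP3 was nearest to IGSF8 (0.0655), PHPT1 (0.104) and KDM4A (0.111). The likeness describes 6 libraries of 3 lines that these genes share.

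The rest of the junction was followed in 60 genes from lists of plakins and hemidesmosomes, adherens junctions, intermediate filaments, the cornified envelope, epithelial regulators and EMT repressors, counting in the 6 desmosomal genes that were barely detected. All 60 were in the table and 30 were tested. In shHMGA2-1, 4 were higher and 14 lower with a median log2 fold change of -0.27, beside 15.8% higher and 17.6% lower of all tested genes. In shHMGA2-2, 9 were higher and 16 lower with a median of -0.20 (9 higher and 11 lower with upper-quartile scaling), beside 29.5% and 29.2% of all tested genes. The median over all tested genes was 0.01 and 0.03.

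A list of 7 genes covered plakins and hemidesmosomes, the junctions that anchor cells to the basement membrane. Of these genes, 1 was higher and 4 lower in shHMGA2-1, and 2 were higher and 5 lower in shHMGA2-2 (2 higher and 3 lower with upper-quartile scaling), beside 33.4% and 58.7% of all genes called. ITGB4, an integrin subunit of hemidesmosomes, was counted 164 and 157 times in the shNC libraries, 1289 and 1058 times in those of shHMGA2-1 and 375 and 343 times in those of shHMGA2-2. Like JUP it was highest in shHMGA2-1 (log2 fold change 2.79, edgeR adjusted p = 5.96e-15) and less so in shHMGA2-2 (1.08, adjusted p = 1.13e-07). ITGA6, the other integrin subunit in the list, was picked out after its values were seen. It was lower in both lines (-0.98, edgeR adjusted p = 5.64e-11, and -0.47, adjusted p = 2.05e-06). COL17A1, the transmembrane collagen of hemidesmosomes, reached 64 and 77 counts with shNC, 27 and 38 with shHMGA2-1 and 246 and 221 with shHMGA2-2, and thus moved in opposite directions (-1.19, edgeR adjusted p = 0.000463, and 1.65, adjusted p = 3.32e-08). The shHMGA2-1 call of COL17A1 was lost in limma with either pseudocount (adjusted p = 0.084 and 0.0505). The cytolinker PLEC, which was picked out after its values were seen, fell by 0.34 and 0.46 on the log2 scale.

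Intermediate filament genes are the partners of desmoplakin, and of 9 tested, 1 was higher and 5 lower in shHMGA2-1 and 3 higher and 5 lower in shHMGA2-2, beside 33.4% and 58.7% of all genes called. With upper-quartile scaling the shHMGA2-2 split was 3 higher and 3 lower. KRT15, a basal keratin, moved in opposite directions at low counts, 14 and 17 for shNC, 4 and 2 for shHMGA2-1, against 31 and 35 for shHMGA2-2 (log2 fold change -2.40, edgeR adjusted p = 0.00403, and 1.00, adjusted p = 0.041). Its shHMGA2-1 call was lost in limma with either pseudocount, and its shHMGA2-2 call in limma with a pseudocount of 1. The shHMGA2-2 call of KRT15 was lost in DESeq2 (adjusted p = 0.274) and without any 1 of the shNC or shHMGA2-2 libraries (0.0772 to 0.16). KRT8, a keratin of simple epithelia picked out after its values were seen, averaged 79.2 CPM in shNC, 84.2 in shHMGA2-1 and 188 in shHMGA2-2. It passed the test in shHMGA2-2 (log2 fold change 1.25, edgeR adjusted p = 1.65e-12), and its difference in shHMGA2-1 of 0.09 did not. The other keratins of simple epithelia in the list, named for comparison with KRT8, did not rise in shHMGA2-2: the log2 fold change was -2.46 for KRT19 (edgeR adjusted p = 1.02e-10), -0.41 for KRT7 (adjusted p = 0.000406) and -0.14 for KRT18, the partner of KRT8, which did not pass the test (adjusted p = 0.129; it passed without either shHMGA2-1 library). In shHMGA2-1, KRT7 was higher (0.55, edgeR adjusted p = 2.29e-05) and thus moved in opposite directions, while KRT19 and KRT18 were lower (-0.65 and -0.32). KRT81, a hair keratin picked out after its values were seen, had the lowest value of the list in shHMGA2-2, -4.35 (edgeR adjusted p = 3.42e-12). Its counts went from 217 and 232 in the shNC libraries to 5 and 18 in those of shHMGA2-2. Adherens junction genes (4 tested) showed 1 higher and 1 lower in shHMGA2-1, and 1 higher and 3 lower in shHMGA2-2, again beside 33.4% and 58.7% of all genes. The higher gene in both lines was ARVCF, a catenin picked out after its values were seen and counted 20 to 60 times a library. DESeq2 did not call it in either line. Its calls were also lost without shNC replicate 2 and without replicate 2 of the line compared. Of 8 cornified envelope genes 1 was tested and was not called in either line.

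EMT repressors are transcription factors that shut down epithelial junction genes. Of 6 listed, 3 were tested, with 1 lower in shHMGA2-1, and 1 higher and 2 lower in shHMGA2-2, beside 33.4% and 58.7% of all genes called; TWIST1 and TWIST2 were at or under 3 counts in each library. The genes of this list that were tested are named after their values were seen. ZEB1 averaged 314 CPM in shNC, 255 in shHMGA2-1 and 111 in shHMGA2-2, and its fall in shHMGA2-2 was 1.50 on the log2 scale (edgeR adjusted p = 1.13e-14). ZEB2 fell by 1.28 (edgeR adjusted p = 3.2e-09), whereas SNAI2 was higher at 28.4 CPM against 6.80 in shNC (log2 fold change 2.06, edgeR adjusted p = 2.3e-12). Whether any of these moved the desmosomal genes was not tested.

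**Figure D4:**
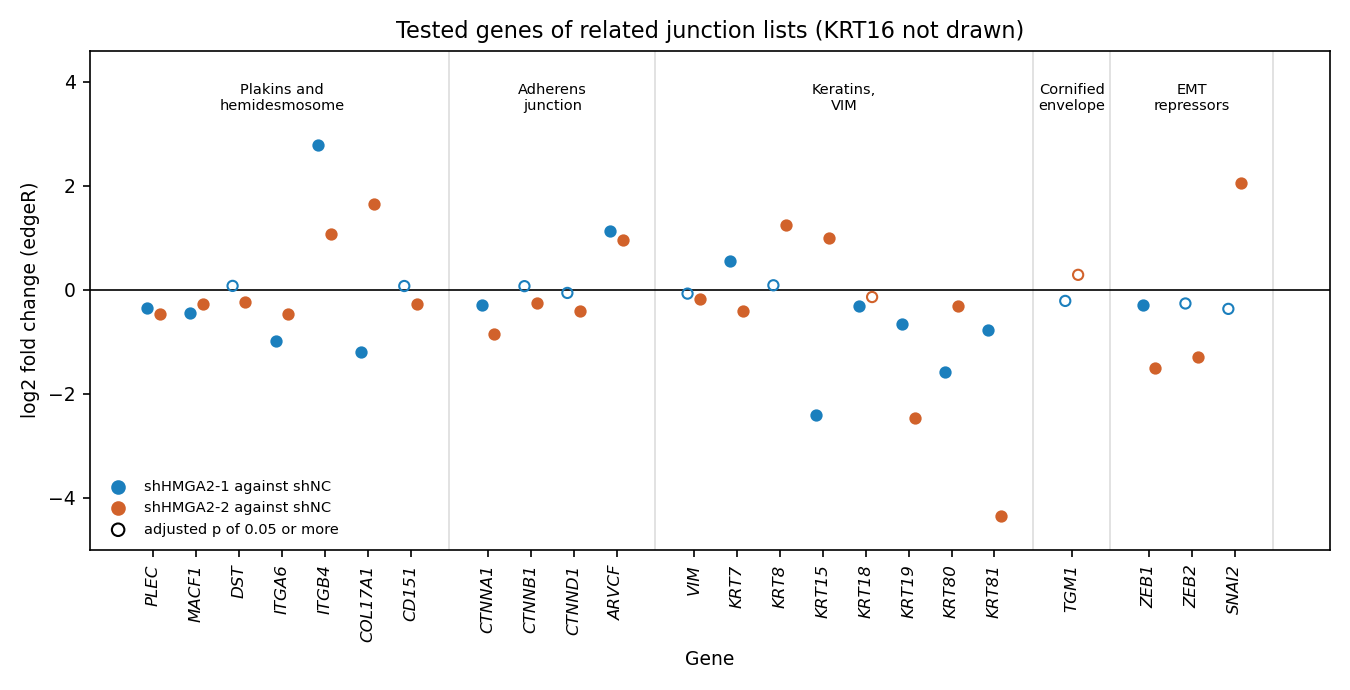
Log2 fold change from shNC (vertical axis) of the tested genes of the junction lists, without the epithelial regulators, in shHMGA2-1 and shHMGA2-2, with a filled point for an adjusted p under 0.05 and an open point otherwise; KRT16 is left out because its shNC libraries were at 0. ITGB4 lies above 0 in both lines, COL17A1 and KRT15 lie below 0 in shHMGA2-1 and above it in shHMGA2-2, KRT81 and KRT19 lie furthest below 0 in shHMGA2-2, and ZEB1 and ZEB2 lie below 0 there too.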

How the data were processed

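The authors deposited 1 table of 6 libraries that lists per gene the raw count, the FPKM value, the position, exonic size and GO terms. The submitters' processing notes name HISAT2 2.2.1, HTSeq 0.6.1 and GRCh38.p13; the strand setting is not stated. The deposited FPKM values were recomputed from counts, exonic size and library total within 0.011 for 100% of values. They served for marker levels, for the order, sums and shares of genes within and between lines, and in limma. They carry no TMM factors. Samples were grouped by title; in the library names, shNC samples read WT and shHMGA2-1 samples SH2. Sample columns not used numbered 0.

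In R 4.3.3, edgeR 4.0.16 was run on the counts with filterByExpr, TMM scaling (factors 0.958 to 1.05), a model of 3 groups and its quasi-likelihood test, with p-values adjusted by Benjamini-Hochberg over 16110 of 61806 genes. The SE is the size of the log2 fold change divided by the square root of F. The script was checked on simulated data. Genes named were the 10 members, HMGA2, list genes called with at least a 2-fold change in both lines against shNC, undetected genes of short lists, overlapping genes and the 3 genes most like DSP, JUP and PKP3; others are marked as picked out later. Values of the epithelial regulators are not reported here, although their calls are within the counts over all lists. Likeness used genes with a mean log2 CPM of at least 3. The members and lists were chosen with earlier results of these data known. Alternatives were DESeq2 1.42.0, RLE or upper-quartile scaling, no filter, limma 3.58.1 on log2(FPKM + 1) or log2(FPKM + 0.1), a replicate block and leaving out each library.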

Additional observations from a re-analysis of the deposited data

Results flagged for a closer look

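In 3 members the 2 knockdown lines differed by at least 2-fold and passed the test of the difference itself, edgeR's comparison of shHMGA2-2 with shHMGA2-1. The log2 fold change between the lines was -2.63 for PKP2 (adjusted p = 2.04e-15), -1.70 for DSC2 (adjusted p = 3.25e-07) and 1.39 for PPL (adjusted p = 0.0121). The 2 libraries of each line did not overlap in these genes. PPL rests on 9 to 32 counts a library, and its call was lost in DESeq2 and without shHMGA2-1 replicate 2 or shHMGA2-2 replicate 2. Groups of 2 libraries were too small to look for outlying libraries.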

How the results depend on the processing

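No log2 fold change of a member changed sign where it was called; of 390 values under the alternatives, 353 kept their side of the threshold, 35 lost it and 2 gained it. In limma with either pseudocount, 4 members were called in shHMGA2-1 in place of 8, and 7 junction genes in place of 18; in shHMGA2-2 limma called 16 junction genes in place of 25. With at least a 2-fold change between the knockdown lines, limma on log2(FPKM + 1) left 1 member in place of 3. The log2(FPKM + pseudocount) scale can understate differences of low genes, and FPKM carries no TMM factor. In shHMGA2-1 the median over all genes was 0.06 with a pseudocount of 0.1, against 0.01 in edgeR, over unlike numbers of genes. The calls lost in shHMGA2-1 included PERP and PKP4, the members with the highest FPKM. PKP3 was also lost with a pseudocount of 0.1, at a log2 fold change of 0.497 against 0.47 in edgeR. Why limma called fewer genes was not tested. Leaving out 1 library gave 5 to 9 members called in shHMGA2-1, 7 to 8 in shHMGA2-2 and 7 to 9 between the knockdown lines, with 3 to 3, 6 to 7 and 2 to 4 past the 2-fold change as well; the 5 was without shNC replicate 2. For the junction lists it gave 12 to 20, 21 to 26 and 20 to 24. Over all genes, 5388, 9464 and 8095 were called in the 3 comparisons, against 3283 in shHMGA2-1 without shNC replicate 2 and 3432 without shNC replicate 1, and DESeq2 called 3789, 7707 and 6183. With at least a 2-fold change, limma on log2(FPKM + 1) called 319, 1302 and 845 of all genes, against 1367, 3432 and 2432. Upper-quartile scaling moved the median of all genes by 0.06, 0.12 and 0.05.

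Replicate numbers did not pair the libraries (correlations of replicate differences -0.022, 0.00135 and -0.144). With the number as a replicate block, 7, 8 and 9 members were called (8, 8 and 9 without), with 3, 7 and 3 past the 2-fold change, and 17, 24 and 23 junction genes. Members that lost a call in shHMGA2-1 under limma were PKP2, PKP3, PKP4 and PERP, and under the block PKP4. Of 364 values of the other genes named with a test against shNC, ITGA6, KRT16 and KRT80 excepted, 35 lost their call and 3 gained one. With 2 libraries a line, precision rests on few degrees of freedom, and PPL at 9 to 32 counts is limited by depth.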
